A study of Mus musculus with 2 samples.

Results

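The intergenic CpGs described here were the autosomal CpG cytosines that lay more than 10 kb from every gene of any type, protein-coding or not, in GENCODE M21. They numbered 166343 of the 1782730 cytosines listed with a methylation level, or 9.47% of the 1756096 autosomal ones. DNA methylation had been read by reduced representation bisulfite sequencing (RRBS) in female Xmas mESCs, mouse embryonic stem cells of the C57/Bl6 strain whose X chromosomes carry fluorescent reporters. The cells were kept in the modified culture method of the study, for 7 passages by the labels (the study's text gives a larger number), and then sorted by FACS on those reporters into XX cells and XO cells, the latter having lost an X chromosome. Each karyotype had 1 library, so no difference below has a replicate error and none was tested. Both libraries share the strain, the Xmas reporters, the culture method and the sort, and nothing in the labels says from how many lines or animals they came. The depth of the libraries is unknown, because only percentages of methylated cytosine (% mC) were used.

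In mammals, DNA methyltransferases methylate mostly the cytosines of CpG dinucleotides, and the bulk of the genome outside CpG islands is methylated in most somatic tissues. Female mESCs with both X chromosomes active are known for lower methylation across the genome than cells with a single X. Sequence far from genes holds few CpG islands and many transposable elements, which methylation helps to keep silent. RRBS cuts DNA with MspI at CCGG and reads the ends of short fragments, so it sees the CpGs of such sequence only near these sites. Among the intergenic cytosines, 47.2% were themselves part of a CCGG and 92.1% lay within 50 bp of one.

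The sequences behind the results are shown here before their values, each as 240 bases of GRCm38 on the forward strand, with the CpGs that had a listed value in capitals and the CpGs without one in lower case. A run below is a series of listed cytosines in which each lies at most 100 bp from the next. The opening examples are runs with very many cytosines, which resemble CpG islands in composition. The sequence at chr6:91843562-91843801, near Grip2, comes from a run of 118 cytosines with 2.28% mC in XX and 2.08% in XO cells.
Grip2 run: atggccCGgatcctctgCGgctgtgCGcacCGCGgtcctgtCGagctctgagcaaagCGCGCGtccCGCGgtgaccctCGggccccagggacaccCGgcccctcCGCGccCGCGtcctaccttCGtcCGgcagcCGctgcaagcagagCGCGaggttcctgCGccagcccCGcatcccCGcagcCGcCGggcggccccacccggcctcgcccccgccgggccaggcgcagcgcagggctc
The sequence at chr17:4908224-4908463, near the non-coding gene 4930579D07Rik, comes from a run of 109 cytosines with 4.79% in XX and 10.6% in XO cells.
4930579D07Rik run: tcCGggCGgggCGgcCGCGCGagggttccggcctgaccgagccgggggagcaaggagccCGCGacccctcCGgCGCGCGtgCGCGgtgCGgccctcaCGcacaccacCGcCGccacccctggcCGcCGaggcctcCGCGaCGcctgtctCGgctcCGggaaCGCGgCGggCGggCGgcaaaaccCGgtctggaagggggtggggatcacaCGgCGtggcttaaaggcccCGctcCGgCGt
Both windows have many CpGs in capitals. Within the windows themselves, the cytosines near Grip2 averaged 0.724% (XX) and 1.68% (XO), and those near 4930579D07Rik 0.411% and 0.302%, so the methylation of the latter run lay outside the window shown. The next examples are the runs of at least 10 cytosines farthest from a gene (chr6:20321652-20321891, 532694 bp from the nearest gene) and in the third place by that measure (chr1:145965794-145966033, 453416 bp), shown because they hold the most remote sequence that RRBS covered well.
Farthest run: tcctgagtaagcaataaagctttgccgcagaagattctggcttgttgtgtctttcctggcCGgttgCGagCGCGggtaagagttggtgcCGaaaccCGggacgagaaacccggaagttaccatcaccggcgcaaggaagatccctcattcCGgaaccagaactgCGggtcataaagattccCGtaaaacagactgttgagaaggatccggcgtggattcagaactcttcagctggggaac
Run of rank 3 by distance: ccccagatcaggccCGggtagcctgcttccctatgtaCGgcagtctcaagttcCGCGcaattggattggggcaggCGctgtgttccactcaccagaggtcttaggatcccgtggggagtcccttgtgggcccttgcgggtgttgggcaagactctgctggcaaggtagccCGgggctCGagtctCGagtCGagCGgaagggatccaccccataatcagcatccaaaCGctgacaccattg
These held fewer CpGs and were methylated in both libraries. The farthest run had 46% mC in XX and 77.4% in XO cells, against 31.5% and 72.1% for the other. The 3 runs with the largest falls from XO to XX cells lay at chr4:48528144-48528383 near Msantd3, at chr6:26394180-26394419 and at chr9:17632396-17632635.
Largest fall: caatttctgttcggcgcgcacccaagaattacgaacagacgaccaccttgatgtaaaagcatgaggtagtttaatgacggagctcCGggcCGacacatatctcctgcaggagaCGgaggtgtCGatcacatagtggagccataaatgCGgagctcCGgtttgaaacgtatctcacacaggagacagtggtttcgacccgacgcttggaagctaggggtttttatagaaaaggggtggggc
Fall of rank 2: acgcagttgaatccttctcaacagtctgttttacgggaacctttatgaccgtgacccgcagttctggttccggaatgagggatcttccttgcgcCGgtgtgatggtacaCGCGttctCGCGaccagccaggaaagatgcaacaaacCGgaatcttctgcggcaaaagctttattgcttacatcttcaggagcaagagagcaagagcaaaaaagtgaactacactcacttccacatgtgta
Fall of rank 3: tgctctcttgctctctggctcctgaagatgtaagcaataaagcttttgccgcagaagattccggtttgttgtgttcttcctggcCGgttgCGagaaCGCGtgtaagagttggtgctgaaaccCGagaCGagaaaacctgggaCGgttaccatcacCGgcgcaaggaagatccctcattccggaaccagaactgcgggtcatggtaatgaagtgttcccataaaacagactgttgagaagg
XX cells were higher in 255 of the 2361 runs with at least 10 cytosines, a share that was not taken over all autosomal runs. The rises of ranks 3 and 4 are shown as examples. They lay at chr8:17969952-17970191, 304555 bp from the nearest gene, and at chr15:37135584-37135823 near the pseudogene Gm9509.
Rise of rank 3: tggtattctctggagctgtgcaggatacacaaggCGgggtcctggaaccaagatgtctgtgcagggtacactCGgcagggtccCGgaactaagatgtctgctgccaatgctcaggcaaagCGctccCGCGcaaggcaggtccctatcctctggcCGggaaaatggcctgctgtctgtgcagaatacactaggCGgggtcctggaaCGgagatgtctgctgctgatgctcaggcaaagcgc
Rise of rank 4: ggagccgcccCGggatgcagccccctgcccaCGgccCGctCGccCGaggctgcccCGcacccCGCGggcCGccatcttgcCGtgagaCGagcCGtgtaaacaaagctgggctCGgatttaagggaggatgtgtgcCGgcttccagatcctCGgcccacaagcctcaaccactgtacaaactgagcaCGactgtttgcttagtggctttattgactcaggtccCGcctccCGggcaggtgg
The run at chr9:17632396-17632635 shared an exact stretch of 57 bases with the farthest run on the same strand, and 54 bases with the run of the second largest fall on the opposite strand. The fall of rank 5, not shown, shared 62 bases with that of rank 3, 45 with the farthest run and 44 with the fall of rank 2. The runs of ranks 2 and 3 by distance shared 50 bases with each other, and 26 and 23 bases with the largest rise. Runs that share sequence are not independent examples.

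Intergenic CpGs were hypomethylated in XX cells. They averaged 31.9% mC in XX cells and 50.5% in XO cells, a difference (XX minus XO, here and below) of -18.6 percentage points and a ratio of 0.631. The medians were 28.0% and 52.9%. XX cells were lower on 19 of 19 autosomes, with the widest gap on chromosome 3 (-21.0 points) and the narrowest on chromosome 11 (-15.5 points). The SD of the difference over the autosomes was 1.30 points, a measure of how it varied along the genome that cannot stand in for replicates. Autosomal CpGs within genes had 15.6% in XX and 22.4% in XO cells (n = 1298706), and those outside genes but within 10 kb of one had 18.2% and 26.2% (n = 291047). Close to the 10 kb limit the values changed little, from 30% and 45.8% at 8 to 10 kb to 30.4% and 46.6% at 10 to 12 kb.

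At the level of single cytosines, 77245 intergenic cytosines (46.4%) had an XX value lower by at least 20 points, against 22.4% of all autosomal cytosines. By contrast, 5742 (3.45%) were at least 20 points higher, against 3.69% of all autosomal cytosines. The share that fell was thus above the background and the share that rose was close to it. Sites with little methylation were more frequent in XX cells. Levels of 10% or less were found at 22.2% (XX) and 12.2% (XO) of the cytosines, and levels of 80% or more at 4.31% and 18.5%. The library values were both under 10% at 9.25% of the cytosines and both at least 50% at 21.3%. At 11.6% they were at least 50% in XO and under 25% in XX cells.

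Values at a single CpG agreed only in part between its strands, for reasons that were not tested. At the 23486 intergenic CpGs listed on both strands, the strands differed by a median of 8.33 points in XX and 11.5 points in XO cells. Across these CpGs, which share libraries and fragments, XX minus XO on the forward strand was only loosely related to its value on the reverse strand (Pearson r = 0.311). Requiring both strands to move left 25.3% of these CpGs with a fall of at least 20 points in XX cells. A rise of that size was left at 13 CpGs (0.0554%). Within genes these shares were 4.73% and 0.0403%, and outside genes but within 10 kb of one 5.71% and 0.0396%. Few of the rises at single cytosines were thus seen on both strands, and the same held within genes.

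**Figure D1:**
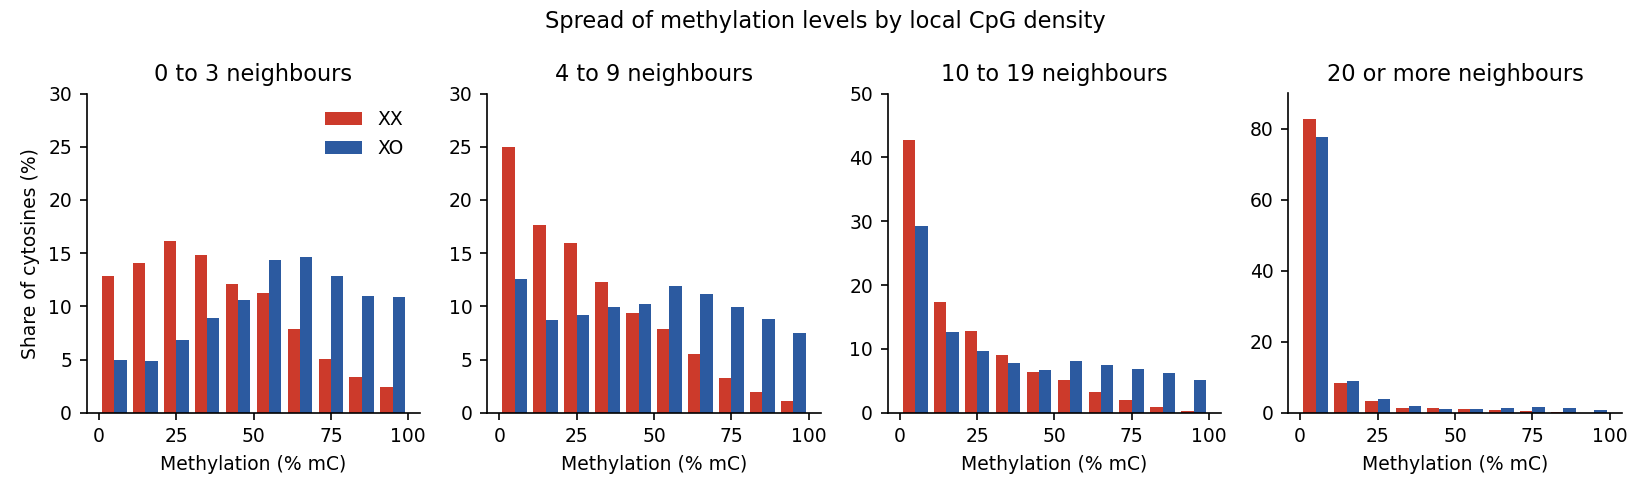
Share of intergenic cytosines (y axis, %) in each class of 10 points of methylation (x axis, % mC) in the XX (red) and XO (blue) library, in panels by the number of other listed cytosines within 100 bp; the y axes differ. With 0 to 3 neighbours the fullest XX class is 20 to 30% and the fullest XO class 60 to 70%, whereas with 20 or more neighbours 82.9% (XX) and 77.7% (XO) lie under 10%.

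The gap between the karyotypes widened with distance from genes. At 10 to 50 kb (n = 121835), the XX mean was 31.3% and the XO mean 49.0%, a difference of -17.7 points (SD over autosomes 1.32). From 50 to 200 kb (n = 40558), it was 33.4% and 54.2%, with a difference of -20.8 points (SD 1.79). Over 200 kb (n = 3950), it was 33.0% and 56.8%, with a difference of -23.8 points (SD 3.0 over the 18 autosomes with at least 50 such cytosines). XO methylation was higher in each more remote class, while XX methylation stayed between 31.3% and 33.4%. The share of cytosines at least 20 points lower in XX cells was 44.6%, 50.8% and 56.8% in these classes, and the share at least 20 points higher was 3.60%, 3.10% and 2.61%. In narrower classes the difference was -17.0 points at 10 to 20 kb, -18.5 at 20 to 50 kb, -20 at 50 to 100 kb, -22.5 at 100 to 200 kb and -23.8 at 200 to 500 kb. The 70 cytosines over 500 kb from a gene had 40.2% and 61.6%, a difference of -21.4 points.

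Base composition and repeats moved with distance. The cytosines in soft-masked sequence, which the reference marks as repeats or low-complexity sequence with no family given here, made up 30% at 10 to 50 kb, 44.9% at 50 to 200 kb and 67% over 200 kb. Mean G+C of the surrounding 100 kb was 43.9%, 41.1% and 38.4% in the same order. Over all intergenic cytosines, the difference was -24.0 points where this G+C was under 38% (34.0% in XX and 58.1% in XO cells), -21.3 points at 38 to 42%, -17.5 points at 42 to 46% and -14.2 points at 46% or more (26.9% and 41.1%). Within the class under 38%, the difference was nearly the same at each distance, at -23.8 points for 10 to 50 kb, -24.1 points for 50 to 200 kb and -24.8 points for over 200 kb. Within the class of 42 to 46% it still widened, from -17.2 to -18.8 and -21.9 points, the last over only 240 cytosines. Each distance class was also given the make-up of all intergenic cytosines in neighbours, soft-masking and G+C, leaving out combinations that it lacked. The means then differed by -18.4 points at 10 to 50 kb, -19.2 points at 50 to 200 kb and -23.1 points over 200 kb. The value over 200 kb leaned on few cytosines. Only 24 of them lay at 46% G+C or more (-26.0 points), a class that held 25.6% of all intergenic cytosines. None had 20 or more neighbours.

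**Figure D2:**
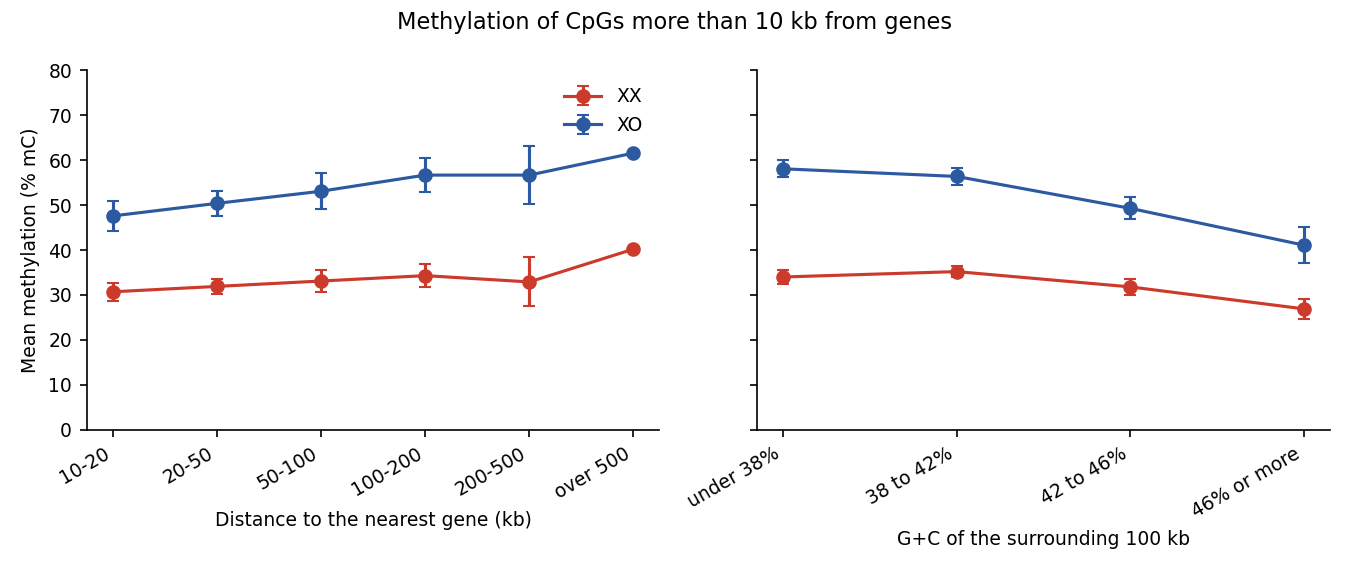
Mean methylation (y axis, % mC) of intergenic cytosines in XX (red) and XO (blue) cells by distance to the nearest gene (left) and by G+C of the surrounding 100 kb (right). Bars are SDs over autosomes with at least 50 cytosines in the class, which the class over 500 kb lacks; XO methylation runs from 47.6% at 10 to 20 kb to 56.7% at 200 to 500 kb and from 58.1% down to 41.1% across the G+C classes, while XX methylation changes less.

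Soft-masked cytosines (n = 57384) had 35.1% in XX and 56.7% in XO cells, a difference of -21.5 points. Those outside soft-masked sequence (n = 108959) had 30.2% and 47.2%, a difference of -17.1 points. Soft-masked cytosines within genes had lower levels and a smaller gap, with 26.0% and 39.3% and a difference of -13.4 points. They were not matched to the intergenic ones for the number of listed cytosines nearby. At identical repeated sequences, described below, the difference was -20 points for intergenic copies and -18.9 points for copies within genes. The values were alike on either side of the nearest gene. The difference was -18.7 points where the nearest gene end was a start and -18.6 points where it was the end of the gene. By type of the nearest gene, it was -16.8 points next to protein-coding genes, -18.9 points next to lincRNAs and -20.2 points next to processed pseudogenes. Cytosines at CCGG had a difference of -19.8 points and the others -17.5 points.

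Methylation was lower the more CpGs lay nearby, in both karyotypes. With 0 to 3 other listed cytosines within 100 bp (n = 90414), the XX mean was 37.0% and the XO mean 56.9%, a difference of -19.9 points (SD over autosomes 1.09). With 4 to 9 (n = 56443), it was 28.7% and 47.6%, a difference of -18.9 points (SD 1.11). With 10 to 19 (n = 14673), it was 20.4% and 35.3%, a difference of -14.9 points (SD 3.52). With 20 or more (n = 4813), it was 6.06% and 9.41%, a difference of -3.35 points (SD 5.55). This last class depended on how density was counted, since counting the CpGs of the reference within 100 bp, listed or not, gave -14 points for 20 or more. The share of cytosines at least 20 points lower in XX cells fell in step, from 50.1% and 46.6% to 35.9% and 8.37%. A lone cytosine with no listed neighbour had 40.6% in XX and 61.4% in XO cells. Where 40 to 52 neighbours lay nearby, the means were 1.68% and 2.38%.

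Denser sequence far from genes was not uniform. The 4813 cytosines with 20 or more neighbours belonged to 168 runs. In 112 of these runs XO methylation was under 10%, and their dense cytosines had 3.27% in XX and 3.82% in XO cells. A middle group of 31 runs had 8.99% and 15%. The other 25 runs were at least 50% methylated in XO cells, and their 286 dense cytosines had 36.6% in XX and 71.5% in XO cells. These groups were made by the XO values themselves, so the gap within each can partly reflect that choice. Of the cytosines in these 25 runs 64.7% were soft-masked, against 2.65% in the 112 unmethylated runs. Chromosome 3 held 102 of the 286, and its dense cytosines had a difference of -18.8 points. Without chromosome 3 the difference of the class was -2.67 points. By soft-masking alone, cytosines with 20 or more neighbours had 27.8% (XX) and 46.1% (XO) in soft-masked sequence (n = 318) and 4.52% and 6.82% outside it. With 10 to 19 neighbours, these were 26.2% and 46.7% in soft-masked sequence and 16.1% and 26.8% outside it.

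**Figure D3:**
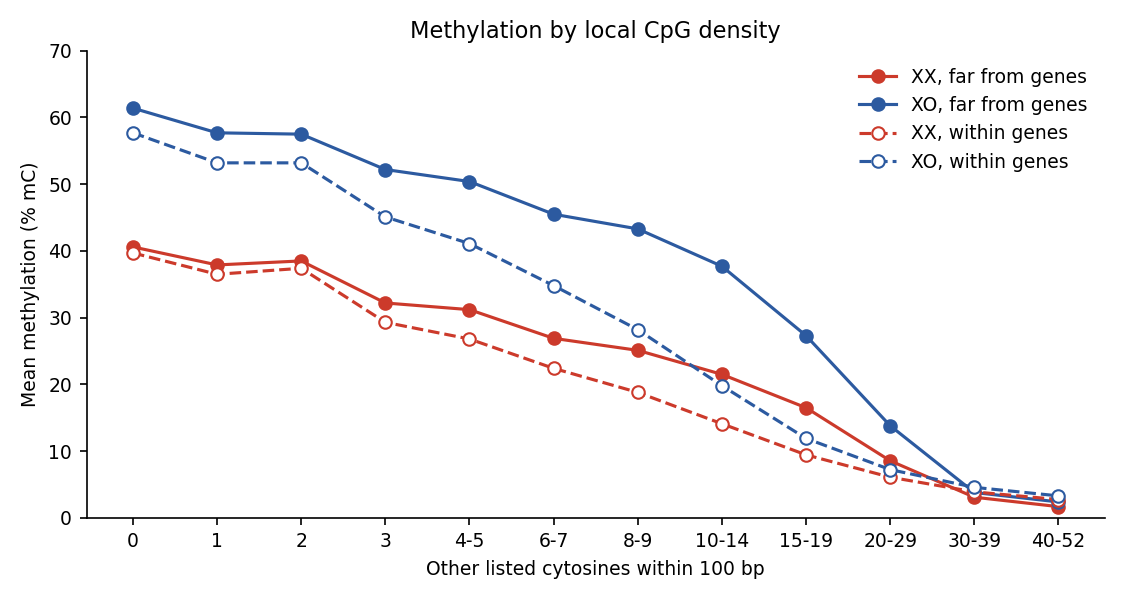
Mean methylation (y axis, % mC) by the number of other listed cytosines within 100 bp (x axis) in XX (red) and XO (blue) cells, for intergenic cytosines (filled points, solid lines) and cytosines within genes (open points, dashed lines). At 10 to 14 neighbours the intergenic values are 21.5% and 37.7% and those within genes 14.1% and 19.8%; from 30 neighbours on, all 4 lines lie under 5%.

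Distance and density each went with the gap. Among cytosines with 0 to 3 neighbours, the difference was -19.1 points at 10 to 50 kb, -21.7 points at 50 to 200 kb and -24.2 points over 200 kb. Among those with 10 to 19 neighbours, it was -13.7, -17.7 and -20.9 points. No cytosine over 200 kb from a gene had 20 or more neighbours. At equal density, intergenic CpGs still lay above CpGs within genes. When the CpGs within genes were given the density of the intergenic ones, they had an XX mean of 28.2% and an XO mean of 41.7%, which differed by -13.5 points against -18.6 points for intergenic CpGs. Standardised also for soft-masking and G+C of the surrounding 100 kb, CpGs within genes had 29.5% and 45.1%, a difference of -15.6 points. With 10 to 19 neighbours, the difference within genes was -4.13 points, and with 20 or more it was -0.836 points.

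Since a high XO value at a cytosine may partly be noise, the fraction kept in XX cells was read on the opposite strand. CpGs were grouped by XO methylation on the forward strand, and both libraries were read on the reverse strand. Intergenic CpGs at 60% or more in XO cells (7030 CpGs) had 40.5% in XX and 66.6% in XO cells on the reverse strand, a ratio of 0.608 (SD over autosomes 0.0208). CpGs within genes had a ratio of 0.613 (34.7% and 56.5%, 16653 CpGs). These ratios belong to different XO levels, and the ratio depended on the level. It was 0.486 for intergenic CpGs at 20 to 30% in XO cells, 0.561 at 60 to 70% and 0.685 at 90 to 100%. At a like XO level the ratio was lower far from genes, without matching for neighbours, soft-masking or G+C. Intergenic CpGs with 52.8% in XO cells on the reverse strand had 27.8% in XX cells (ratio 0.527), and CpGs within genes with 52.6% had 30.7% (ratio 0.584). Matched sets were closer. Standardised for neighbours, soft-masking and G+C over every XO level, the ratios were 0.631 far from genes and 0.655 within them. Identical repeated sequences, described below, had 31.1% (XX) and 51.0% (XO) far from genes and 30.1% and 49.0% within them. Over 200 kb from genes, the ratio was 0.373 at 20 to 30% (47 CpGs) and 0.718 at 90 to 100% (53 CpGs).

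**Figure D4:**
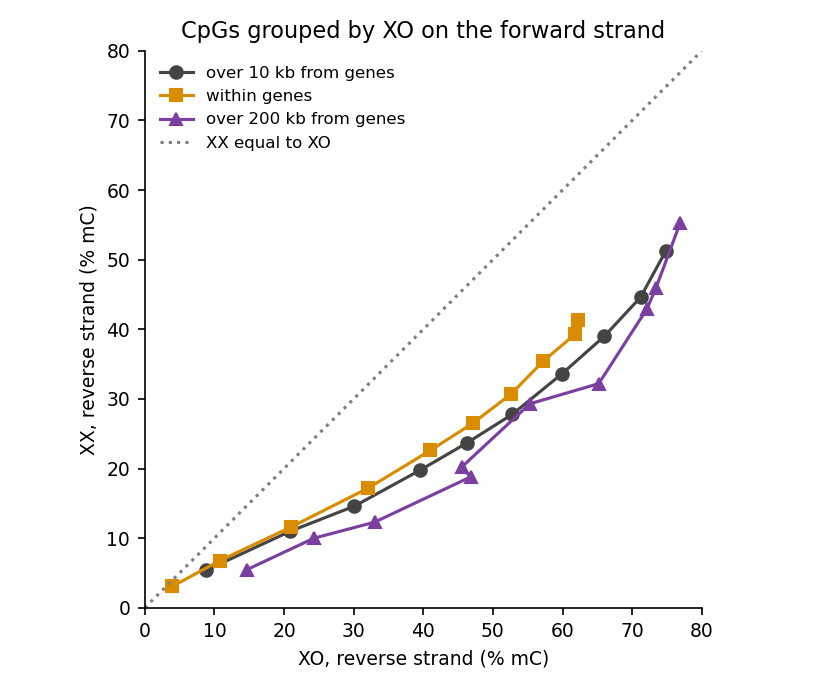
XX against XO methylation on the reverse strand (% mC) for CpGs grouped in classes of 10 points by XO methylation on the forward strand, for CpGs more than 10 kb from genes (grey circles), more than 200 kb from genes (purple triangles) and within genes (orange squares). Every class lies under the dotted line of equal values. Where both are drawn, the line for CpGs within genes lies above the grey one, only slightly so under an XO level of about 30%.

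Neighbouring CpGs moved together over short distances only. Between nearby listed cytosines of the same strand, 2 to 10 bp apart, the Pearson correlation of the difference was 0.655 (34659 pairs, which share reads). A cytosine could enter several pairs. It was 0.361 at 61 to 100 bp, 0.170 between 100 and 200 bp and 0.0370 between 1 and 10 kb. Methylation itself was correlated further, with 0.523 in XO and 0.346 in XX cells between 100 and 200 bp.

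The intergenic cytosines formed 51377 runs, of which 2361 had at least 10 cytosines. In these 2361 runs the median difference was -16.6 points, and the 25th and 75th centiles were -26.8 and -5.22 points. A fall of at least 20 points in XX cells was found in 979 runs (41.5%), against 13.7% of all autosomal runs of that size. A rise of that size was found in 3 of the 2361 runs, against 134 of all 32147 autosomal runs with at least 10 cytosines (0.417%). Methylation was under 10% in both karyotypes in 344 runs. Runs that were under 10% in XX cells alone numbered 274, and runs under 10% in XO cells alone numbered 35. XO methylation was at least 50% and XX methylation under 25% in 121 runs. The shares of all autosomal runs in these states were not taken, so the counts cannot be called particular to intergenic runs.

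The runs with the most cytosines had low mean methylation in both libraries, but 3 of the 5 held single cytosines at 40% or more. The run with the most held 135 cytosines between Igip and Cystm1 (chr18:36320050-36320761), with means of 1.89% (XX) and 4.63% (XO), and no cytosine was above 12.5% in XX or 26.7% in XO cells. The run near Grip2 had values of 0 to 16.7% in XX and 0 to 9.09% in XO cells. The run near Rph3al had means of 8.94% and 8.49%, with single values up to 46.7% in XX and 40% in XO cells, and differences of -4.92 (forward strand) and 6.35 points (reverse strand). The run near Gpr161 had 7.69% and 5.69%, with single values up to 46.2% and 50%, and differences of 7.11 and -2.73 points on the strands. Of these 5 runs, the one near 4930579D07Rik had the largest gap, with a difference of -8.05 (forward strand) and -3.12 points (reverse strand). Its single values reached 57.9% in XX and 50% in XO cells. The genes named lay 13310 bp or more from these runs.

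The most remote runs were methylated, and XX cells were lower in each. The farthest run had single values of 12.5 to 75% in XX and 57.1 to 100% in XO cells, and it differed by -27.0 points on the forward and by -38.4 points on the reverse strand. The run second in distance, 506607 bp from a gene in the same gene-free stretch of chromosome 6, had 52.7% and 64.7%, with -23.4 and -4.82 points on the strands. The third had 31.5% and 72.1%, from 11 cytosines that were all on the forward strand.

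In the run of the largest fall, 11635 bp from Msantd3, the XX mean was 12.6% and the XO mean 75.8%. The 10 cytosines lay between 4.55 and 37.8% in XX and between 63.4 and 92.7% in XO cells. They came from 6 CpGs within 72 bp and are not replicates, and the run was chosen for its fall. The fall was alike on the strands, at -63.6 (forward strand) and -62.7 points (reverse strand). The falls of ranks 2 and 3 had 23.1% and 82.9%, and 24.2% and 83.9%. In the former XX values reached 56.5% and XO values went down to 71.4%, and in the latter XX values reached 65.0% and XO values went down to 57.7%. The next runs had 15.6% and 72.8% (chr4:27170014-27170135), and 32.8% and 87.6% (chr4:28768024-28768117, 45014 bp from Epha7). On the forward and reverse strand, the falls of ranks 2 to 4 were -57.6 and -62.1, -58.9 and -60.5, and -60.7 and -53.8 points. That of rank 5 was less even, at -37.0 and -66.7 points. The runs of ranks 2 to 5 were wholly soft-masked, and the run near Msantd3 was so at 30% of its cytosines. Where sequence is repeated, a read can match several places, and how such reads were handled is not given in the sources used here.

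Rises were rarer, and several were uneven. The largest, on chromosome 12 (chr12:119752560-119752715), had 66.9% in XX and 44.3% in XO cells, but the difference was 42.4 (forward strand) and 2.69 points (reverse strand). The next, on chromosome 3 (chr3:96499796-96499961), had 46.5% and 24.8%, with -9.46 (forward strand) and 30.1 points (reverse strand). In neither run was a CpG read on both strands, so these values belong to different positions as well as different strands. The third, shown above, had 42.7% and 21.2%, with differences of 19.7 points over 7 forward and 25.7 points over 3 reverse cytosines. It was not even along the run, since 3 forward cytosines differed by 43.3 to 57.6 points and the other 4 by -4.39 to 2.27 points. Its only CpG read on both strands differed by -4.39 points on the forward and by 28.6 on the reverse strand. The run near Gm9509 had 22 cytosines outside soft-masked sequence at 18.3% in XX and 1.99% in XO cells. Its XO values did not exceed 10.3% while XX values reached 33.3%, and the difference was 11.8 (forward strand) and 21.8 points (reverse strand). Its single differences ran from -6.90 to 24.1 points on the forward strand and from -5.09 to 33.3 points on the reverse strand. The fifth, 29600 bp from Ppp2r5c, had 17.6% and 4.18%, with 16.3 and 7.53 points on the strands. These last 2 runs were almost unmethylated in XO cells.

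The intergenic cytosines lay in 9200 gaps between neighbouring genes, apart from 103 cytosines at chromosome ends. In 2708 of the 2743 gaps with at least 20 cytosines the mean was lower in XX cells, and in 35 it was higher. Stretches within genes were not counted in this way. CpGs within genes were also lower in XX cells on 19 of 19 autosomes. The median difference over these gaps was -19 points, with 25th and 75th centiles of -24.1 and -13.6 points. The cytosines averaged 30.6% (XX) and 47.2% (XO) in gaps under 100 kb, 32.9% and 53.1% in gaps of 100 to 500 kb, 34.1% and 57.5% in gaps of 500 kb to 1 Mb, and 33.5% and 54.2% in gaps over 1 Mb (468 cytosines). The gap between the karyotypes was thus not widest in the longest gaps, at -20.6 points over 1 Mb against -23.4 points at 500 kb to 1 Mb. XX cells were lower in each of the 10 longest gaps, by between -25.3 and -17.1 points. The longest, of 1255 kb on chromosome 1 between the lincRNA 9330185C12Rik and the pseudogene Gm4854, had 95 cytosines with 24.4% and 49.7%. The gap on chromosome 6 between the pseudogenes Gm42581 and Gm19102, which holds the 2 most remote runs, had 174 cytosines with 37.8% and 58.0%. That on chromosome 6 beside Nxph1, 923 kb long, had 86 cytosines with 36.5% and 60.3%, of which 90.7% were soft-masked. RRBS covered these gaps thinly, with 3.34 cytosines per 100 kb in the sparsest (between Gm23520 and Gm12131, 23.9% and 41.7%) and 14.7 in the fullest.

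Repeated sequence allowed the same bases to be compared at many places. The 24 bases around each intergenic CpG, read in either orientation and with 1 autosome left out, were found once for 82.3% of the CpGs and at 10 or more intergenic CpGs for 8.56%, the latter from 412 different sequences. The repeated ones took up 6.93% of the CpGs at 10 to 50 kb, 12.6% at 50 to 200 kb and 17.4% over 200 kb. The 5 shown here, with the CpG in capitals, are those with the most sites among the repeated sequences that have no copy on the autosome left out. They are shown because copies of 1 sequence differed from copies of another far more than the distance classes did.
19 sites: aagacctgggaCGagaaaacctgg
16 sites: aattaaagtgcCGgcagactgacc
15 sites: cagaagctgtcCGgttctgtggcg
A further 15 sites: ccgcagacagcCGgccaccgtcca
14 sites: agcaggaaaccCGgcctgaccagg
The sequence with 19 sites had 37.8% in XX (SD 16.4 over sites) and 66.1% in XO cells (SD 22.3), and 18 of its sites were lower in XX cells. That with 14 sites had 38.9% and 62.3%, and that with 16 sites 19.6% and 38.2%. The sequences with 15 sites had 15.4% and 27.5%, and 13.6% and 19.7%, in the order shown. The same spread was seen in the sequences with the most copies, which are not printed. The most frequent, at 742 sites, had 40.8% in XX (SD 16.7) and 65.0% in XO cells (SD 17.1), and 657 of its sites were lower in XX cells. The next, at 375 sites, had 44.5% and 69.8%. The sequence at 242 sites had 7.39% (SD 11.1) and 16.2% (SD 19.2), that at 220 sites 34.0% and 63.4%, and that at 190 sites 7.35% and 17.4%. Some sequences with copies all over the genome were thus highly methylated in XO cells and others hardly so, although between 40% and 47.0% of the sites of each of these 5 lay more than 50 kb from a gene.

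**Figure D5:**
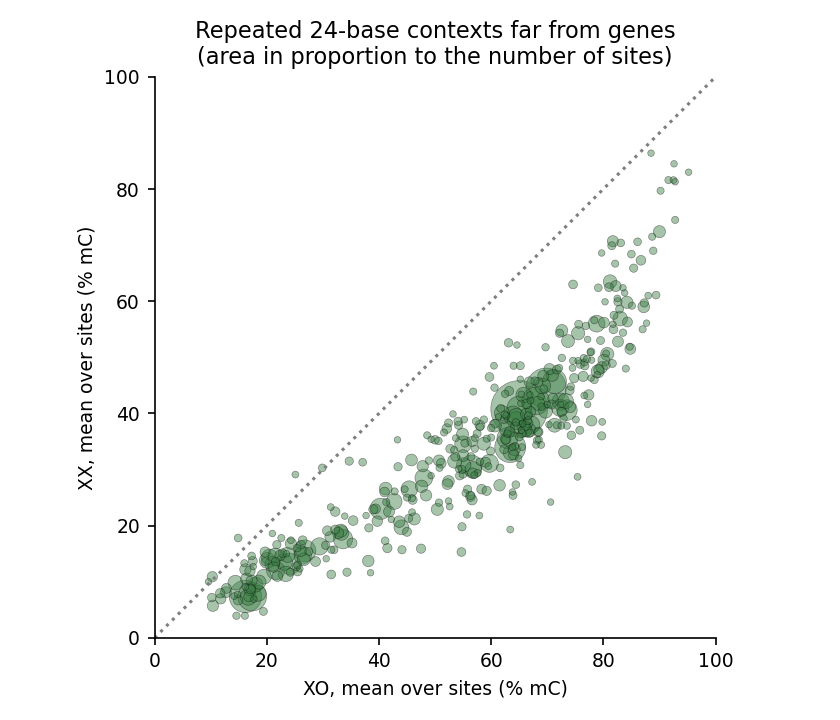
XX against XO methylation (% mC) for the 412 sequences of 24 bases found at 10 or more intergenic CpGs, each point the mean over its sites, with its area in proportion to their number. Of these sequences 407 lie under the dotted line of equal values, and XO means run from 9.62% to 95.2%.

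XX cells were lower at 407 of the 412 repeated sequences, with a median difference of -22.5 points and a range of -46.7 to 4.02 points. Sequences that differed by as little as 1 base were counted apart, so the 412 are not independent examples. The 76 sequences under 30% in XO cells had means of 12.4% (XX) and 20% (XO), the 127 at 30 to 60% had 27.2% and 48.1%, and the 209 at 60% or more had 47.1% and 73.3%. The ratios were 0.621, 0.566 and 0.642, in groups made by the same XO means. For 162 of the sequences at least 10 copies also lay within genes, which allowed a comparison at identical bases. Averaged over these sequences, intergenic copies had 31.1% (XX) and 51.0% (XO), and copies within genes had 30.1% and 49.0%. The difference was -20 points for intergenic copies and -18.9 points for copies within genes, and it was larger in the intergenic copies for 95 of the 162. The sequence with 742 intergenic sites had 392 within genes, with 42.3% and 64.3%, and the one with 242 had 98 within genes, with 6.49% and 15.2%. At identical sequence, intergenic and genic copies thus differed less than intergenic and genic CpGs as a whole, which also differ in density and soft-masking. Standardised for neighbours, soft-masking and G+C, intergenic CpGs had a difference of -18.6 points and CpGs within genes -15.6 points. A read from a repeated sequence can match several copies, and how far this made the copies alike was not tested.

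The bases next to the CpG made little difference over all intergenic cytosines, with a difference of -19 points where A or T stood on both sides and -18.8 points where C or G did. Among CpGs with no other CpG of the reference within 35 bp, those flanked by A or T on both sides had 36.9% in XX and 54.2% in XO cells (n = 2200), and those flanked by C or G had 34.6% and 55.2% (n = 31805). The differences were -17.3 and -20.6 points. With another CpG of the reference within 35 bp the order was the opposite, at -19.3 points for A or T on both sides (n = 14151) and -18.0 points for C or G (n = 72918).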

How the data were processed

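Per the labels, DNA was extracted with the Zymo Quick DNA kit and libraries were made with the NuGEN Ovation Methylseq kit. The submitters' processing notes name bcl2fastq, Bismark and mm10, without versions or settings. The authors deposited the percent of methylated reads for each CpG cytosine, with the strands listed separately and no counts. The coverage minimum and the treatment of reads with several matches are not given in the sources used here. The table held 0 further columns of sample values.

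Each position was given its distance to the nearest of 55450 genes of GENCODE M21, the number of other listed cytosines within 100 bp, and, from GRCm38.p6, its strand, soft-masking, flanking bases and G+C of 100 kb. Of the intergenic positions 6 lay on no CpG. Repeated sequences of 24 bases were counted without chromosome 18. Standardised means give each set the shares of the intergenic cytosines in 4 classes of neighbours, and a class without cytosines in a set was left out. The gaps and runs named were the 10 longest gaps with at least 20 cytosines, the 5 runs with the most cytosines, the 3 runs of at least 10 farthest from genes, and, with at least 3 per strand, the 5 largest falls and rises. The members, lists and classes were chosen with earlier results of these data known. With 1 library per karyotype no test was made, and the SD over autosomes, for those with at least 50 cytosines, stands for spread over the genome only. Alternatives changed the sites left out, the median, 10 kb windows, the strands, soft-masking, the gene set, the density measure and the thresholds. Code was checked on simulated data. Python 3.11.15, numpy 2.4.6, pandas 2.3.3, pysam 0.24.0, samtools 1.23.1 and matplotlib 3.10.9 were used.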

Additional observations from a re-analysis of the deposited data

How the results depend on the processing

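A difference or a ratio counted as moved when an alternative changed it by more than the SD over autosomes, and a share when it changed it by more than 1.5 times. Of 71 alternatives to 13 results, 46 moved none and no difference changed sign. Taking medians over cytosines moved the difference of all intergenic CpGs to -24.9 points, those at 10 to 50, 50 to 200 and over 200 kb to -22.7, -27.1 and -30.5 points, and those with 0 to 3 and 4 to 9 neighbours to -24.8 and -24.0 points. It made the difference with 20 or more neighbours 0 points. Counting each 10 kb window once gave -20.2 points over all intergenic CpGs and -19.4 points at 10 to 50 kb. Outside soft-masked sequence these were -17.1 and -16.4 points, and with 4 to 9 and 10 to 19 neighbours -17.3 and -10.8 points. With distance taken from protein-coding genes only, the differences over all CpGs, at 10 to 50 kb and at 50 to 200 kb were -17.0, -14.8 and -17.4 points. With density taken from the CpGs of the reference, those with 10 to 19 and 20 or more neighbours were -18.5 and -14 points. The share at least 20 points lower in XX cells became 30.5% at 30 points. The share at least 20 points higher became 8.09% at 10 points, 1.49% at 30 points and 0.307% on the mean of the strands. The density-standardised difference of intergenic CpGs minus that of CpGs within genes was -5.09 points, and it became -3.80 points outside soft-masked sequence, -11.8 points without standardisation and -3.03 points when standardised also for soft-masking and G+C, an alternative chosen after seeing the data. The ratio on the other strand became 0.653 for CpGs at 80% or more in XO cells. Leaving out each autosome in turn kept the difference of all intergenic CpGs between -18.8 and -18.4 points. The cause of these shifts was not tested. Leaving out chromosome 3 for the densest class was also chosen after seeing the data. The unknown depth limits single cytosines most. No paired analysis was possible because each karyotype had 1 library and the result comes from no test.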

Other observations

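The CpGs on chromosome X that met the same distance limit, 6567 cytosines outside the autosomal set, had 32.6% in XX and 55.3% in XO cells, a difference of -22.7 points. By distance, the difference was -21.8 points at 10 to 50 kb (n = 4139), -23.8 points at 50 to 200 kb (n = 2312) and -30.5 points over 200 kb (n = 116). Given the density of the autosomal intergenic CpGs, those on chromosome X had 32.2% and 54.5%, with a difference of -22.3 points. The autosome with the widest gap, chromosome 3, had -21.0 points.

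Among the gaps with at least 20 intergenic cytosines, 4 were chosen after their values were seen, as the lowest and the 3 highest differences. Between Gm45433 and Gm45432 on chromosome 8, a gap of 60.1 kb, the XX mean was 32% and the XO mean 79.4% over 20 cytosines. Between Snrnp40 and Nkain1 on chromosome 4 it was 18.7% and 7.48% over 38 cytosines, between Gm18476 and Syt10 on chromosome 15 18.8% and 8.68% over 25, and between Gdf6 and 4930448K20Rik on chromosome 4 34.5% and 26.4% over 26. None of the cytosines in these 3 gaps that were higher in XX cells was soft-masked, against 80% in the gap on chromosome 8. Soft-masking was not compared over the other gaps, and 65.5% of all intergenic cytosines lay outside soft-masked sequence.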
